A study of Mus musculus with 12 samples.

Results

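Beko cells are a mouse line of pre-T cells, and the experiment described here asked how their transcripts changed after the γ-secretase inhibitor DAPT. Cultures in IMDM with FCS were given DAPT at 10 µg/ml or, as control, DMSO; both were harvested at 24 h, and each group has 2 libraries. The labels give no genotype, strain or clone, and no change to the genome is stated for either group. Genes entered when 2 or more of the 4 libraries had a normalized read count of at least 10, which took in 12840 of the 23366 gene symbols in the table. A normalized read count is the number of reads of a gene divided by 1 size factor per library, and all levels below are in these units. The 4 libraries are part of a series of 12, whose other 8 hold 2 experiments in the same cells, each with its own control libraries. Those are 0.01 µg/ml apicidin for 24 h against DMSO, and a short hairpin RNA against Hdac3 (shHdac3) against a scrambled hairpin, harvested 96 h after puromycin.

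Of the 12840 genes, 12264 reached the value of 10 in all 4 libraries. Another 108 entered only through both DAPT libraries and 52 only through both DMSO libraries, so these could enter only by being higher in that group. Of the 10526 genes left out, 6550 were at 0 in all 4 libraries. Just inside the limit was 1700003D09Rik, at 4.28 and 10.2 with DAPT and 10.3 and 5.87 with DMSO. Just outside was 1700013G23Rik, at 8.55 and 15.7 with DAPT and 7.18 and 9.79 with DMSO.

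Notch receptors are cut in steps. A ligand on a neighbouring cell lets an ADAM protease remove the outer part of the receptor, and γ-secretase, a protease complex of the membrane, then frees the intracellular domain. That domain enters the nucleus, binds the DNA-binding protein RBPJ and recruits a Mastermind-like coactivator and histone acetyltransferases. Without it, RBPJ is bound by corepressors. DAPT blocks the γ-secretase cut, so it acts on an enzyme and not on a transcript. In the thymus, Notch1 signalling starts T cell commitment and carries precursors through pre-T cell receptor selection, and in T cell leukaemia it is a known driver of growth.

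Depth was 37237080 and 42815304 reads assigned to genes with DAPT, and 39819637 and 41257311 with DMSO. Replicate libraries correlated at r = 0.997 with DAPT and 0.996 with DMSO across tested genes, which describes the libraries and is no test. The chi-square per degree of freedom between replicates was 6.23 with DAPT and 19.0 with DMSO, so no library was a copy of another. Symbols beginning with Hist took 17.5% and 16.8% of reads with DAPT and 15.9% and 15.4% with DMSO. The 45S pre-rRNA symbol Rn45s took 1.39% and 1.55% with DAPT and 2.39% and 1.48% with DMSO, so the first DMSO library stood above the other 3.

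The pre-T label was set against marker genes. All 10 T lineage markers were measured in all libraries, and their summed level was 108914 and 110702 with DAPT and 137285 and 140289 with DMSO. Of these markers, Ptcra, Cd3d, Cd3e, Cd3g, Rag1, Rag2, Il2ra and Lck were called lower with DAPT, and Cd247 and Thy1 higher. Of 6 B cell markers, 3 (Ms4a1, Pax5 and Ebf1) were at 0 in all 4 libraries and the sum was 14.7 to 23.5. Of 4 erythroid markers, 3 were at 0. Of 5 fibroblast markers, Col3a1 and Dcn were at 0, and the sum was 1160 and 1102 with DAPT and 1212 and 1200 with DMSO. Most of that sum was Pdgfrb, at 1081 and 1020 with DAPT and 1176 and 1170 with DMSO. Col1a2, a collagen gene of the same set, was higher, at 72.7 and 68.5 with DAPT and 27.7 and 20.6 with DMSO (1.52 ± 0.24, adjusted p = 1.6e-05). The part of other cells in the results was not tested. Since whole cultures were lysed, fewer cells of a type and less RNA per cell cannot be told apart in any value below.

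DAPT moved a large share of the measured transcripts by small amounts and a small set by large amounts. At an adjusted p under 0.05 in limma, 2584 genes were higher (20.1% of those tested) and 2962 lower (23.1%). With DESeq2 the counts were 1645 higher and 2168 lower, and with upper-quartile factors 3153 higher and 2430 lower, which turned the balance. The limma calls, 5546 in all, had a median change of 1.22-fold, and 57.8% of calls stayed under 1.25-fold. The set with changes of 2-fold or more held 177 higher genes (1.38%) and 124 lower genes (0.966%). At 4-fold or more the balance turned, with 15 genes higher and 36 lower. The labels do not say whether the replicates were separate cultures, so each p-value reflects library-to-library spread, possibly of technical origin alone.

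**Figure D1:**
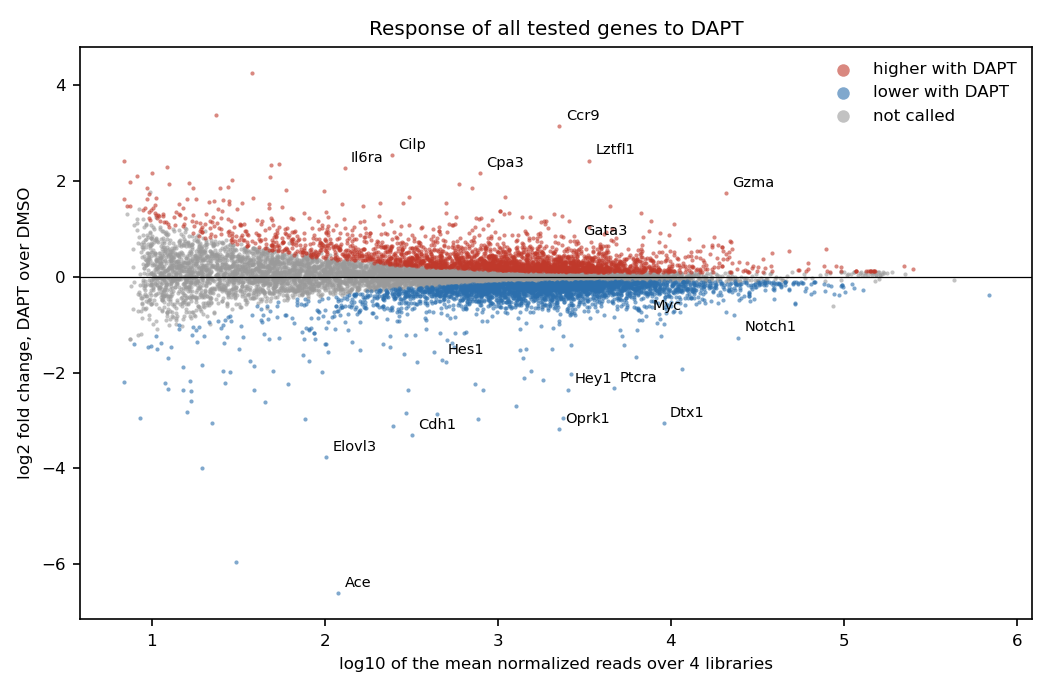
Each point is 1 of the 12840 tested genes, placed by the log10 of its mean normalized reads over the 4 libraries (horizontal axis) and its log2 fold change, DAPT over DMSO (vertical axis). Red marks genes called higher and blue genes called lower (adjusted p below 0.05), and grey marks the rest. The named falls reach further from 0 than the named rises, with Dtx1 at -3.05 and Ace lower still, and Ccr9 at 3.14.

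Genes known as direct readouts of Notch activity were among the largest falls. Dtx1, an E3 ubiquitin ligase named for the fly gene deltex, had 1959 and 1944 normalized reads with DAPT and 16625 and 15824 with DMSO. Its libraries kept 12% of the DMSO level (log2 fold change -3.05 ± 0.04 SE, adjusted p = 3.1e-24). Ptcra, the invariant chain that pairs with the rearranged beta chain in the pre-T cell receptor, had 1531 and 1586 with DAPT and 7897 and 7696 with DMSO, or 20% of the DMSO level. In both genes the groups lay far apart and the replicates close together.

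The HES and HEY genes encode basic helix-loop-helix repressors that are the classical output of RBPJ. Hey1 had 826 and 837 normalized reads with DAPT and 4218 and 4321 with DMSO, and Heyl had 122 and 78.6 with DAPT and 524 and 490 with DMSO. Hes1 had 207 and 229 with DAPT and 698 and 760 with DMSO, which left 29.9% of the DMSO level. These 3 fell without overlap between the groups, a pattern seen downward in 35.5% of all tested genes. Hes6, a family member that antagonises Hes1, was slightly higher, at 2715 and 2703 with DAPT and 2487 and 2345 with DMSO (0.17 ± 0.04, adjusted p = 0.0037). The other 5 family members, Hes2, Hes3, Hes5, Hes7 and Hey2, lay under the filter, at no more than 1.96 normalized reads in any library.

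Ptcra is shown with its promoter because it was among the largest falls and carries the RBPJ core more than once. The RBPJ core used here is TGGGAA on either strand. The stretch is the 250 bases before the RefSeq start of Ptcra, on the minus strand at chr17:46763713-46763962 of GRCm38.p6, with the RBPJ core in capitals.

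Ptcra: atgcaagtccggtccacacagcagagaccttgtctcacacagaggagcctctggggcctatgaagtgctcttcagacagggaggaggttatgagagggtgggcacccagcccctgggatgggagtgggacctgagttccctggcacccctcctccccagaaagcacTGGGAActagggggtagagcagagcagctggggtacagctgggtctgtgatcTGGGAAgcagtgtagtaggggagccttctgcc

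The matches lie 84 and 32 bases before the start. A window of 250 bases before to 50 bases after the start held the core in 33.3% of 24 windows of Notch target genes. The share was 25.6% of all 32851 RefSeq windows, 22.9% of windows of tested genes, and 18.8% of 96 windows of genes that fell 2-fold or more. A match in a window is a description of letters and not a binding site.

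Of 25 genes listed as Notch targets in T cells, 23 were tested, 16 were lower, 6 higher, and the median log2 fold change was -0.75. Over all tested genes 23.1% were lower and the median was 0.00. The 2 listed genes under the filter were Hes5 and Hey2. Il2ra, the alpha chain of the IL-2 receptor and the CD25 marker of this stage, had 218 and 233 with DAPT and 743 and 811 with DMSO. Nrarp, a small ankyrin protein that limits Notch signalling, had 872 and 833 with DAPT and 1864 and 1794 with DMSO. In GENCODE vM21, 79.4% of its exonic bases overlap a gene on the other strand, and the strand setting of the counting is not given in the sources used here. Myc, the growth-promoting transcription factor, had 5061 and 5337 with DAPT and 9342 and 9047 with DMSO, or 56.5% of the DMSO level.

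Smaller falls on the list were in Lef1 (-0.99 ± 0.04), Cdk6 (-0.39 ± 0.05) and Trib2 (-0.30 ± 0.04). Lef1 is a partner of β-catenin, and 34.5% of its exonic bases overlap a gene on the other strand. Ccnd3, the cyclin that T cell precursors need for expansion, was at -0.10 ± 0.04 (adjusted p = 0.036), and this call was lost without DAPT replicate 1 (0.23), DAPT replicate 2 (0.16) or DMSO replicate 1 (0.17). The 6 higher members were Lfng, Gata3, Ccnd1, Tcf7, Il7r and Bcl11b. Gata3, a transcription factor of T cell commitment, had 3575 and 3598 with DAPT and 2106 and 2168 with DMSO. Tcf7, which encodes TCF-1, had 24026 and 25381 with DAPT and 18964 and 18338 with DMSO. The groups did not overlap in either gene, a pattern seen upward in 34.5% of all tested genes and downward in 35.5%.

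**Figure D2:**
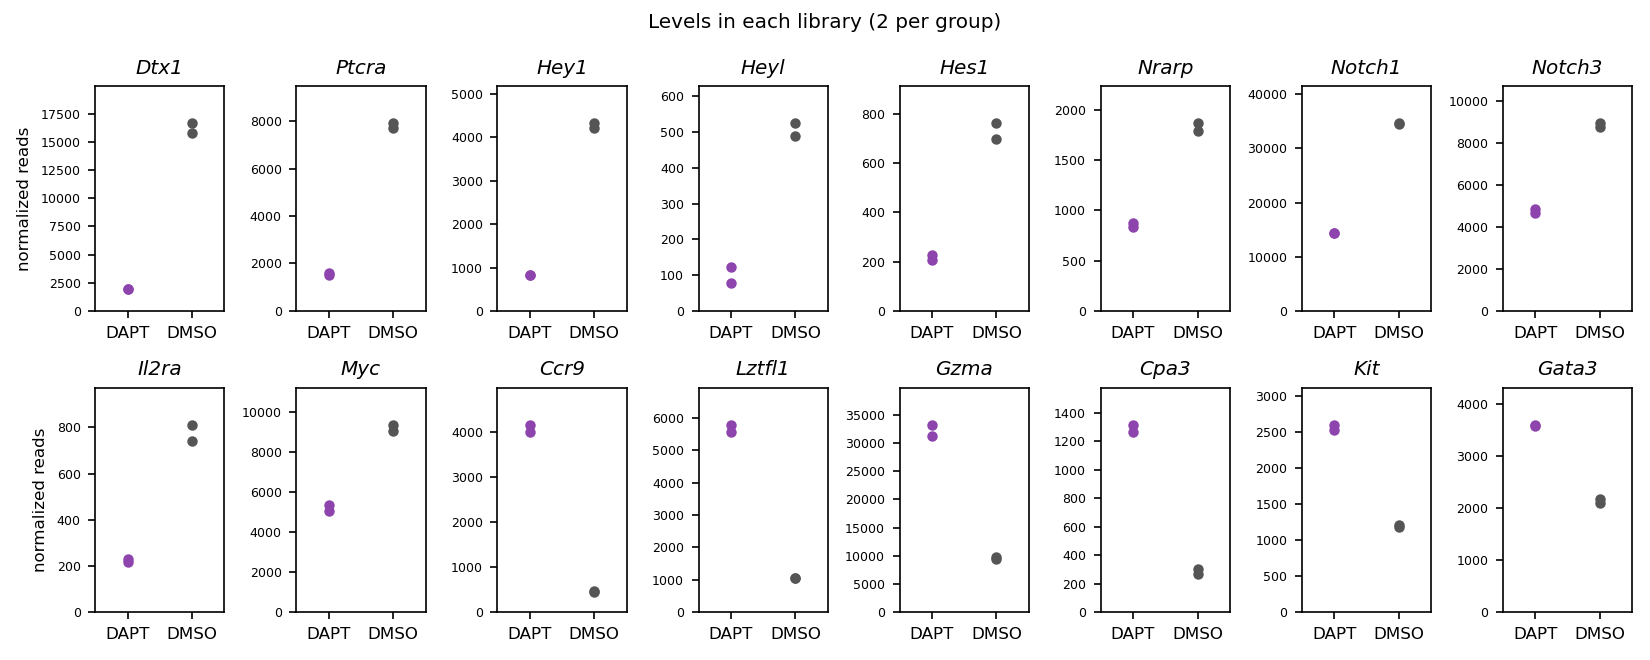
Normalized reads of 16 genes in each library, with the 2 DAPT libraries on the left and the 2 DMSO libraries on the right of each panel, and with each vertical axis starting at 0. In the first 10 panels, from Dtx1 to Myc, both DAPT libraries lie below both DMSO libraries, and in the last 6, from Ccr9 to Gata3, both lie above.

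Among the receptors themselves, Notch1 and Notch3 fell and Notch2 and Notch4 gave no call. Notch1 had 14315 and 14340 normalized reads with DAPT and 34487 and 34616 with DMSO, so its transcript was at 41.5% of control. Notch3 had 4665 and 4873 with DAPT and 8776 and 8943 with DMSO (53.8%). Notch2 was at 1785 and 2006 with DAPT and 1668 and 1950 with DMSO (0.07 ± 0.06, adjusted p = 0.40), and it passed without DMSO replicate 2 (0.18, adjusted p = 0.0027). Notch4 was at 38.5 and 59.2 with DAPT and 43.1 and 31.3 with DMSO, with overlapping groups.

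Ligand transcripts were scarce in this line. Jag2 was the ligand gene that passed the filter, with 227 and 208 with DAPT and 198 and 174 with DMSO (0.22 ± 0.12, adjusted p = 0.13). Dll1 was at 0 in all 4 libraries, and Dll3, Dll4, Jag1, Dlk1 and Dlk2 stayed at or under 10.3. For Dll1, 0 reads in a library allow up to 3 reads, counting error only.

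Of the proteases, Adam10, which makes the ligand-dependent cut, had 4743 and 4838 with DAPT and 3708 and 3948 with DMSO (0.32 ± 0.04, adjusted p = 8.6e-07). Adam17 was at 0.09 ± 0.04 (adjusted p = 0.066). For γ-secretase, the target of DAPT, all 7 subunit genes were measured. Of these, 4 were called higher and 0 lower, beside 20.1% and 23.1% of all tested genes, and the 4 changes were small. Aph1c was the most changed, at 152 and 150 with DAPT and 113 and 110 with DMSO (0.44 ± 0.14). Aph1b (0.26 ± 0.09) and Ncstn (0.12 ± 0.05) were called too. Without DAPT replicate 1 or without DMSO replicate 2 the subunit count was 2 of 7, and with DESeq2 it was 0. Psen2 (0.28 ± 0.12), Aph1a (0.04 ± 0.04) and Psenen (0.03 ± 0.06) did not pass.

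The glycosyltransferases that tune ligand choice went both ways. Mfng had 1429 and 1310 with DAPT and 2005 and 1813 with DMSO (-0.48 ± 0.06), and Poglut1, which adds O-glucose, fell by 0.33 ± 0.06 on the log2 scale. Lfng was higher, at 135 and 136 with DAPT and 87.2 and 69.5 with DMSO (0.79 ± 0.16). Pofut1 (0.16 ± 0.05) lost its call without DAPT replicate 1 (adjusted p = 0.19).

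The nuclear partners changed by smaller amounts than Hes1, Hey1 and Heyl. Rbpj had 3133 and 3040 with DAPT and 2897 and 3113 with DMSO (0.04 ± 0.04, adjusted p = 0.50), and the groups overlapped. Of 12 genes of the RBPJ complex and its coactivators, 5 were higher (41.7%) and 4 lower (33.3%). Both shares were above the 20.1% and 23.1% of all tested genes. The acetyltransferase gene Kat2a had 2149 and 2184 with DAPT and 3228 and 3092 with DMSO (-0.54 ± 0.04), whereas Ep300 (0.25 ± 0.05) and Crebbp (0.21 ± 0.04) were higher. Maml2, a Mastermind-like coactivator, had 73.8 and 84.2 with DAPT and 48.2 and 40.1 with DMSO. Maml1 (0.14 ± 0.06, adjusted p = 0.055) and Maml3 (0.03 ± 0.06) gave no call. The kinase module genes Ccnc (-0.30 ± 0.06) and Cdk8 (-0.20 ± 0.05), whose products phosphorylate the intracellular domain, fell.

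Of 16 RBPJ corepressor genes, 2 were higher and 1 lower, a smaller share than the 43.2% of all tested genes called in either direction. Hdac2 was the lower one, at 6825 and 6818 with DAPT and 7713 and 7981 with DMSO. Hdac3 was at 3402 and 3335 with DAPT and 3641 and 3488 with DMSO (-0.08 ± 0.04, adjusted p = 0.11). Of 16 genes of Notch endocytosis and turnover, 2 were higher and 3 lower. Mib1, a ligase that acts on ligands, fell by 0.22 ± 0.04, and Fbxw7, which marks the intracellular domain for degradation, was at -0.01 ± 0.04 (adjusted p = 0.87).

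**Figure D3:**
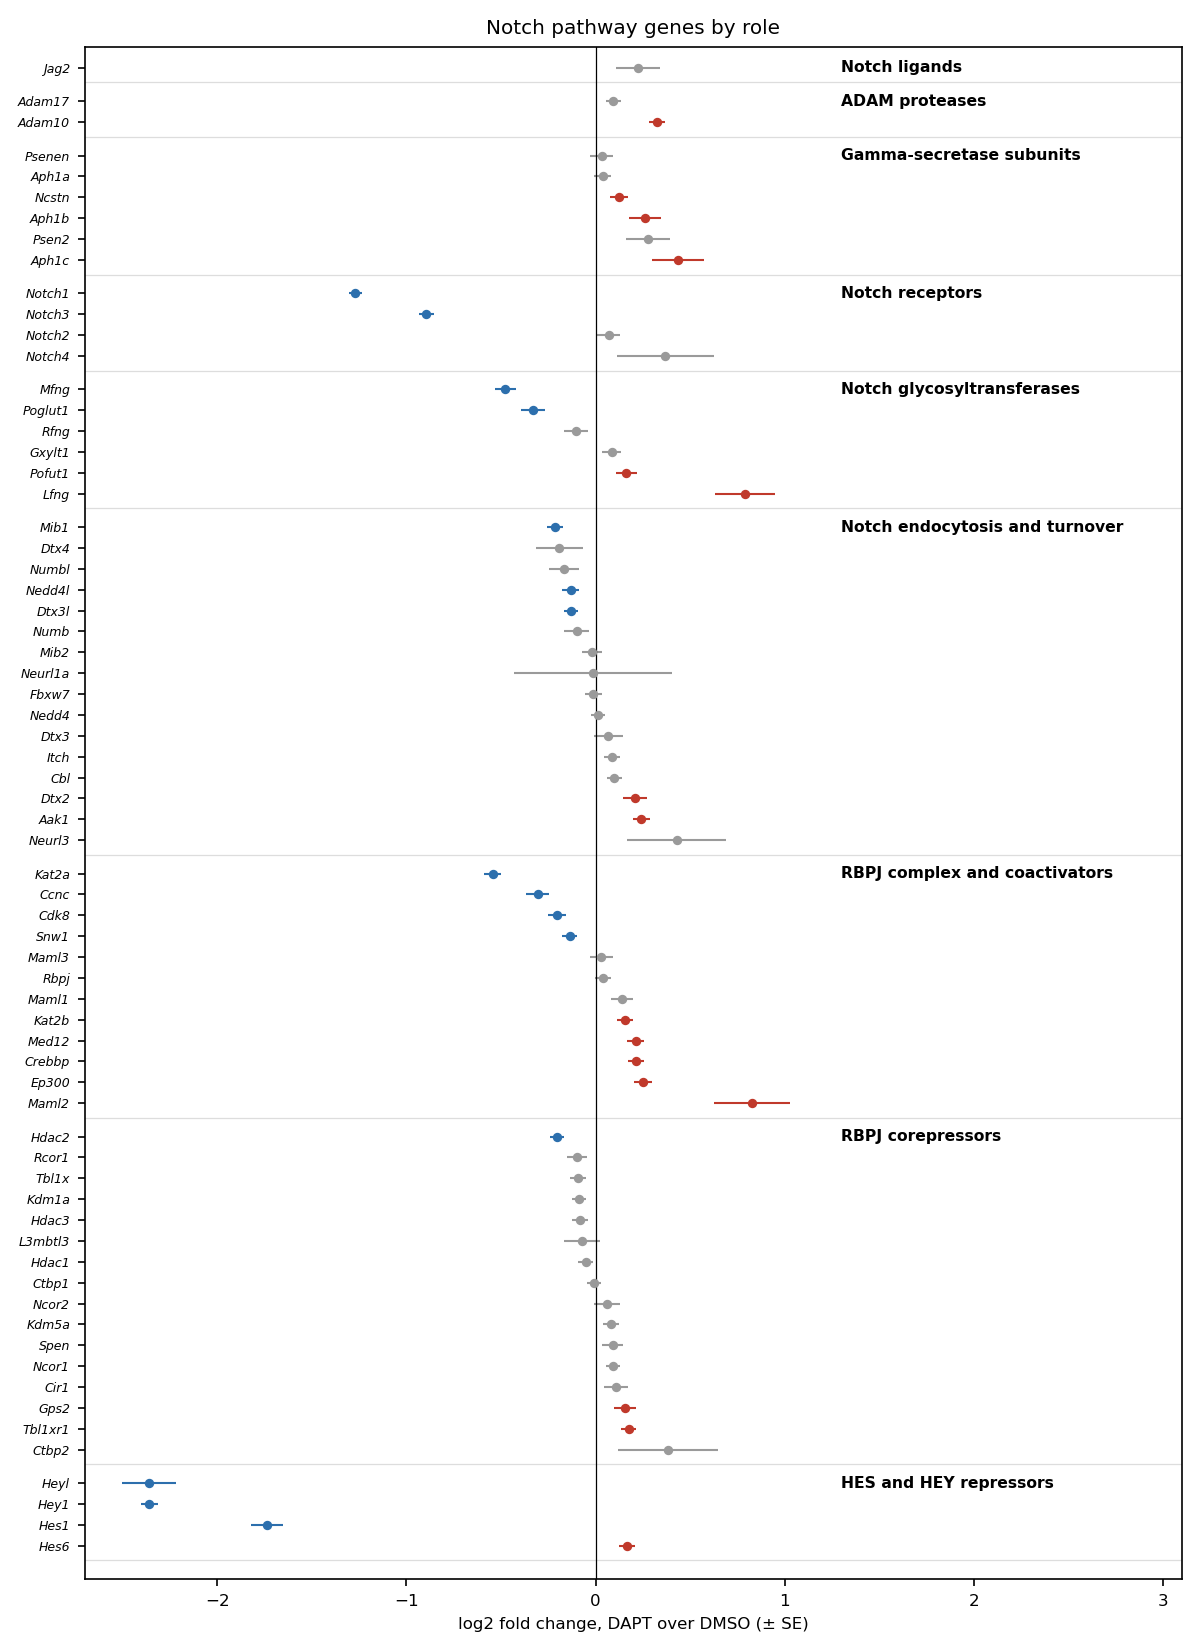
Log2 fold change, DAPT over DMSO, with its SE (bars) for tested Notch pathway genes, grouped by role from ligand to output. Red marks higher, blue lower, and grey no call; Hes1, Hey1, Heyl, Notch1 and Notch3 are the points below -0.8, Lfng and Maml2 stand furthest to the right, and the other components lie between -0.6 and 0.5.

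Beyond the pathway, the largest falls were in genes of very different function. Ace, angiotensin-converting enzyme, had 2.14 and 0.925 normalized reads with DAPT, which are 2 and 1 reads, and 245 and 231 with DMSO. This is 0.625% of the DMSO level, with an exact 95% interval of 0.128% to 1.84% that covers counting error only, so its fitted fold change depends on the pseudocount. Ace passed the filter only through its DMSO libraries, so it could enter only by being lower with DAPT. Cdh1, the adhesion protein E-cadherin, had 64.1 and 50.9 with DAPT and 575 and 580 with DMSO. Oprk1, the kappa opioid receptor, had 462 and 435 with DAPT and 3894 and 4236 with DMSO. In each of these the DMSO level was high enough that the fall could be read in single libraries.

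P2rx1, an ATP-gated channel, had 82.3 and 62.0 with DAPT and 523 and 513 with DMSO. Gpr56, an adhesion receptor, had 258 and 280 with DAPT and 1404 and 1353 with DMSO. Coro2a, an actin-binding coronin, had 373 and 307 with DAPT and 2250 and 2185 with DMSO. Elovl3, Spsb4, Ifi204, Exoc3l4 and Arhgef10l completed the 15 largest falls together with the Notch genes above, with log2 fold changes of -3.77 to -2.94. Ifi204 belongs to a family of close copies, so its reads may be shared with them.

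The largest rises too were in genes of different function, among them receptor and effector genes of T cells and neighbouring genes of chromosome 9. Ccr9, the chemokine receptor for CCL25 that guides precursors within the thymus, had 4155 and 3999 with DAPT and 480 and 445 with DMSO (3.14 ± 0.05, adjusted p = 9.8e-22). Lztfl1, a ciliary trafficking protein, had 5774 and 5554 with DAPT and 1062 and 1050 with DMSO (2.42 ± 0.04). These genes are next to each other among the protein-coding genes of chromosome 9 in RefSeq (GRCm38.p6). The other neighbours were then read, a choice made after the values of Ccr9 and Lztfl1 were seen.

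Slc6a20a, an amino acid transporter on the far side of Lztfl1, had 77.0 and 69.4 with DAPT and 4.1 and 1.96 with DMSO, which are 4 and 2 reads. Cxcr6, a chemokine receptor gene on the other side of Ccr9, had 384 and 357 with DAPT and 175 and 181 with DMSO (1.05 ± 0.10). Between Ccr9 and Cxcr6 lies Fyco1, an autophagy adaptor, at 637 and 687 with DAPT and 534 and 520 with DMSO (0.33 ± 0.07). Slc6a20a passed the filter only through its DAPT libraries, so it could enter only by being higher. Ccr9, Lztfl1, Fyco1 and Cxcr6 were higher by very unequal amounts, and 20.1% of all tested genes were called higher.

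Slc6a20b, next to Slc6a20a, was at 106 and 118 with DAPT and 75.9 and 74.4 with DMSO (0.56 ± 0.16), a call lost without DAPT replicate 2 (adjusted p = 0.061) and with DESeq2 (0.11). Limd1 (0.15 ± 0.04) was called, but not without DAPT replicate 1 (adjusted p = 0.081). Sacm1l (0.05 ± 0.04, adjusted p = 0.42) and Xcr1 (0.13 ± 0.07, adjusted p = 0.15) gave no call, and Xcr1 passed without DAPT replicate 1 (0.040). Ccr1 and Ccr1l1, further along, lay under the filter.

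Other large rises were in Maf, Il6ra, Gzma and Cpa3. Maf, a transcription factor of effector T cells, had 1029 and 1198 with DAPT and 296 and 322 with DMSO. Il6ra, the IL-6 receptor, had 237 and 197 with DAPT and 41.0 and 47.0 with DMSO. In both genes the groups lay far apart.

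Gzma, the serine protease granzyme A, had 33149 and 31118 with DAPT and 9365 and 9714 with DMSO. It is also 1 of 5 NK cell markers, of which Ncr1 and Klrb1c were at 0 in all libraries and Eomes (0.17 ± 0.20, adjusted p = 0.54) gave no call. The fifth, Prf1, which encodes perforin, was higher, at 49.2 and 44.4 with DAPT and 30.8 and 20.6 with DMSO (0.87 ± 0.26, adjusted p = 0.011). Its call was lost without DAPT replicate 1 (adjusted p = 0.067), without DMSO replicate 2 (0.11) and with DESeq2 (0.145). The NK sum, made almost wholly of Gzma, was 33280 and 31219 with DAPT and 9458 and 9792 with DMSO. Cpa3, a carboxypeptidase of mast cells and of early T cell precursors, had 1314 and 1262 with DAPT and 302 and 272 with DMSO. The other 4 mast cell markers, Mcpt4, Tpsab1, Cma1 and Ms4a2, were at 0 in all 4 libraries.

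Itgam, an integrin chain used as a myeloid marker, had 526 and 451 with DAPT and 235 and 239 with DMSO. The remaining 5 myeloid markers stayed at or under 8.33, with Cd14 and Elane at 0 throughout. In the annotation, 70.0% of the exonic bases of Itgam are shared with another gene on the same strand. Cilp, Tdrd5, Lzts1, Cass4, Sytl2, Cdh24 and Ppap2b were also among the 15 largest rises, at log2 fold changes of 1.53 to 2.54.

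T cell transcription factor and receptor signalling genes were more often higher than lower. CD3, pre-T cell receptor chain and recombination genes were more often lower. Of 23 T cell transcription factor genes, 19 were higher and 2 lower (median 0.40), beside 20.1% and 23.1% of all tested genes. Sox13, a factor of γδ T cells, had 1563 and 1529 with DAPT and 647 and 600 with DMSO, and Rora had 1026 and 969 with DAPT and 472 and 491 with DMSO. Tox, needed for CD4 lineage development, had 1687 and 1676 with DAPT and 926 and 916 with DMSO. Zbtb7b, which encodes ThPOK and fixes the CD4 lineage (0.74), and Runx3, its counterpart in the CD8 lineage (0.30), were both higher. The 2 lower members were Lef1 and Ets2, the second at 6405 and 6602 with DAPT and 9027 and 9384 with DMSO.

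The T cell receptor apparatus split between the receptor chains and the signalling proteins. Of 5 CD3 and pre-T cell receptor chain genes, 4 were lower and 1 higher, beside 23.1% and 20.1% of all tested genes. Cd3g had 7838 and 7856 with DAPT and 12539 and 13214 with DMSO, and Cd3d (-0.41 ± 0.04) and Cd3e (-0.26 ± 0.04) fell less. Cd247, the zeta chain, was the higher one, at 6817 and 6774 with DAPT and 4598 and 4462 with DMSO, with 64.0% of its exonic bases overlapped by a gene on the other strand.

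Of 25 receptor signalling genes, 14 were higher (56%) and 2 lower (8%), beside 20.1% and 23.1% of all tested genes (list median 0.23). Grap2, the adaptor GADS, had 5545 and 5524 with DAPT and 3002 and 2778 with DMSO. Rasgrp1, an activator of RAS (0.75 ± 0.05), Prkcq, protein kinase C theta (0.64 ± 0.04), and Cd28 (0.50) were higher too. The lower members were the Src-family kinase genes Fyn, at 5211 and 5219 with DAPT and 6853 and 7081 with DMSO, and Lck (-0.15 ± 0.04). The call for Lck was lost without DAPT replicate 1 (adjusted p = 0.058).

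Surface markers of thymocyte stages shifted in the same table. Of 14 listed, 10 were higher (71.4%) and 2 lower (14.3%), beside 20.1% and 23.1% of all tested genes (list median 0.43). Kit, the stem cell factor receptor of the earliest thymocytes, had 2534 and 2598 with DAPT and 1183 and 1206 with DMSO. Cd69, a marker of receptor engagement, had 233 and 231 with DAPT and 99.5 and 108 with DMSO. The coreceptor genes Cd4 (0.46), Cd8a (0.46) and Cd8b1 (0.49) were higher by similar amounts, and the lower members were Il2ra and Cd24a (-0.28 ± 0.04). Markers of earlier and of later stages were thus both among the higher genes.

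The recombination genes had members in both directions. Of 12, 5 were lower (41.7%) and 2 higher (16.7%), beside 23.1% lower and 20.1% higher of all tested genes. Rag1, a subunit of the recombinase, had 41720 and 42519 with DAPT and 59768 and 63296 with DMSO, and Rag2, its partner, had 397 and 424 with DAPT and 908 and 908 with DMSO. Dntt, the polymerase TdT that adds bases at the joints, was higher, at 45589 and 44470 with DAPT and 31616 and 32101 with DMSO. Lig4, the ligase of end joining, had 2926 and 3022 with DAPT and 1954 and 2007 with DMSO. The E protein inhibitors also split, with Id1 at 289 and 288 with DAPT and 757 and 687 with DMSO, and Id2 at 5515 and 5651 with DAPT and 4022 and 4094 with DMSO.

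Cytokine receptor genes were mostly higher, 18 of 24, with 3 lower (median 0.36), beside 20.1% and 23.1% of all tested genes. Il21r had 322 and 347 with DAPT and 161 and 137 with DMSO, and Il2rb, the beta chain shared by the IL-2 and IL-15 receptors, had 149 and 171 with DAPT and 84.1 and 84.2 with DMSO. Ifngr1 (1.15) and Il10rb (0.98) were also higher. The alpha chains of the same 2 receptors went the other way. Il15ra had 180 and 173 with DAPT and 448 and 373 with DMSO, beside the fall of Il2ra given above. Il12rb2 was at -0.57 ± 0.07, and 40% of its exonic bases overlap a gene on the other strand. Trafficking receptors and integrins had 12 higher and 0 lower of 18 (median 0.35), among them Itgb7, the β7 chain of gut-homing integrins, at 5739 and 5813 with DAPT and 3475 and 3428 with DMSO.

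Genes of growth and biosynthesis were lower list after list, in small steps. The lists below are ordered from the MYC network to the ribosome and to building blocks. Whether their changes depend on MYC was not tested. No ribosome biogenesis, aminoacyl-tRNA synthetase or nucleotide synthesis gene changed by as much as 2-fold. Each list count below is to be read against the 20.1% higher and 23.1% lower of all tested genes.

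Within the MYC network, Myc fell while antagonists that compete for its partner MAX rose. Mxd4 had 2180 and 2117 normalized reads with DAPT and 907 and 895 with DMSO (1.25 ± 0.05), and Mxd1 had 540 and 565 with DAPT and 339 and 334 with DMSO. Max fell by 0.19 ± 0.04 on the log2 scale, and Mnt was at 0.01. Over the list of 12, 10 genes were tested, of which 3 were higher (30%) and 4 lower (40%), beside 20.1% and 23.1% of all tested genes. The call for Mxd3 (0.18 ± 0.05) was lost without DAPT replicate 1 (adjusted p = 0.16) or DMSO replicate 2 (0.051), and that for Mlx (-0.22 ± 0.05) without DAPT replicate 2 (0.084).

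All 50 tested genes of ribosome biogenesis were lower, with a median log2 fold change of -0.55 and a range of -0.79 to -0.10. Mybbp1a, a nucleolar MYB-binding protein, had 6004 and 6447 with DAPT and 10767 and 10691 with DMSO. Nolc1, a chaperone of small nucleolar ribonucleoproteins, had 4913 and 5119 with DAPT and 8390 and 8369 with DMSO. Npm1 (-0.56), nucleolin Ncl (-0.49) and the methyltransferase Fbl (-0.50), the abundant nucleolar proteins, lay near the median. The least changed were Emg1 (-0.10), Bysl (-0.23) and Dcaf13 (-0.25).

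MYC binds the E-box CACGTG, which reads the same on both strands. This letter string was in 12 of 47 promoter windows of ribosome biogenesis genes (25.5%), in 4 of 12 of aminoacyl-tRNA synthetase genes (33.3%) and in 16.2% of 37 of nucleotide synthesis genes. It was in 7.15% of all RefSeq windows, in 9.81% of those of tested genes and in 6.25% of those of genes that fell 2-fold or more. In a search that did not cover every chromosome, it lay in the 250 bases before a start for 3 ribosome biogenesis genes. Their stretches are shown for that reason. They are Nop2, an rRNA methyltransferase gene on the plus strand at chr6:125131633-125131882, Utp18 on the minus strand at chr11:93885767-93886016, and Imp4 on the plus strand at chr1:34439579-34439828, all in GRCm38.p6, with the E-box in capitals.
Nop2: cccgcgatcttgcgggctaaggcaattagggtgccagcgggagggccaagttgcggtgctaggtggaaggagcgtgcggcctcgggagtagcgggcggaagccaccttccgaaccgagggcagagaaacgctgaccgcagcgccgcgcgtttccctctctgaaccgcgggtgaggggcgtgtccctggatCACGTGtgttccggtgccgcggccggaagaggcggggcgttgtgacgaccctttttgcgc
Utp18: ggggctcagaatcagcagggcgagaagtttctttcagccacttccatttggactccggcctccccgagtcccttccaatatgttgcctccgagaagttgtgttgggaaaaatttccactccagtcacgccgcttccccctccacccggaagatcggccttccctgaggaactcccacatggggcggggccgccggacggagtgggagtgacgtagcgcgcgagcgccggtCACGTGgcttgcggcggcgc
Imp4: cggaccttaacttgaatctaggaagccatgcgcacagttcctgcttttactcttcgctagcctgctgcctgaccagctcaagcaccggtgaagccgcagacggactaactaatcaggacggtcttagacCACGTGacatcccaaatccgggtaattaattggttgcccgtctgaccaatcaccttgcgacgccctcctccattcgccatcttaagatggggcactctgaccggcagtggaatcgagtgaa

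The E-box lay 60 bases before the start in Nop2, 20 in Utp18 and 121 in Imp4. Nop2 had 2361 and 2431 with DAPT and 3894 and 3971 with DMSO (-0.71 ± 0.04). Utp18 had 2093 and 2084 with DAPT and 2819 and 2974 with DMSO (-0.47 ± 0.04). Imp4, a subunit of the small-subunit processome like Utp18, had 797 and 745 with DAPT and 967 and 968 with DMSO (-0.33 ± 0.06). The 3 genes thus span much of the range of the list. As for the RBPJ core, an E-box match is a description of letters and not a binding site.

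Transcription and translation genes around the ribosome moved the same way. Of 23 RNA polymerase I and III genes, 17 were lower and 0 higher (median -0.28). Polr1b, the second-largest subunit of polymerase I, had 1594 and 1583 with DAPT and 2426 and 2393 with DMSO. Of 38 translation factor genes, 29 were lower and 0 higher (median -0.24), and 9 of 10 snoRNA host genes were lower, among them Gas5 at 6600 and 7047 with DAPT and 8916 and 8443 with DMSO. Eif4ebp1, the inhibitor of cap-dependent initiation, was among the lower translation genes, at 2060 and 2041 with DAPT and 3678 and 3424 with DMSO.

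The ribosomal proteins themselves moved less. Of 81 cytosolic ribosomal protein genes, 66 were lower and 1 higher, with a median of -0.13. The lower count was 37 without DAPT replicate 1 and 29 without DAPT replicate 2. Rps2 had 77228 and 76488 with DAPT and 99425 and 96830 with DMSO. The higher one was Rpl3l, a striated-muscle paralogue of Rpl3, at 142 and 118 with DAPT and 65.7 and 61.7 with DMSO. Ribosomal protein genes have many near-identical copies in the genome, so their read counts are uncertain. Of 76 mitochondrial ribosomal protein genes, 60 were lower and 1 higher (median -0.21), the higher being Mrpl9 (0.16 ± 0.04), a call lost without DAPT replicate 1 (adjusted p = 0.068).

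Genes that supply building blocks were mostly lower too. Of 33 genes of nucleotide and one-carbon synthesis, 29 were lower and 2 higher (median -0.40). Gart, a trifunctional enzyme of purine synthesis, had 4876 and 4897 with DAPT and 7996 and 7906 with DMSO. Mthfd1, of the folate cycle, had 4933 and 5025 with DAPT and 7938 and 7867 with DMSO. The higher members were Ctps2, a CTP synthase, at 1882 and 1613 with DAPT and 1298 and 1364 with DMSO, and the ribonucleotide reductase gene Rrm2 (0.16 ± 0.04). Of 20 aminoacyl-tRNA synthetase genes, 19 were lower and 0 higher (median -0.38), led by Nars at 7613 and 7728 with DAPT and 11347 and 11681 with DMSO.

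Polyamine genes included one of the larger single falls of the growth genes. Srm, spermidine synthase, had 1532 and 1580 with DAPT and 3017 and 2876 with DMSO, or 52.8%, and Odc1, which makes putrescine, was at -0.28 ± 0.04. Amino acid transporters were divided, 6 lower and 4 higher of 13. Slc7a1, for cationic amino acids, had 2500 and 2740 with DAPT and 3854 and 4291 with DMSO. Slc43a2, for large neutral ones, had 3446 and 3498 with DAPT and 2215 and 2125 with DMSO.

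Energy and protein-quality lists also held more lower than higher genes. Of 22 glycolysis genes, 15 were lower and 1 higher (median -0.26), with hexokinase 2, Hk2, at 4226 and 4378 with DAPT and 5898 and 6159 with DMSO. The higher one, Eno2, was at 60.9 and 57.4 with DAPT and 47.2 and 33.3 with DMSO. Its call was lost in all leave-one-out fits but the one without DMSO replicate 1, with adjusted p up to 0.36. Of 77 nuclear oxidative phosphorylation genes, 57 were lower and 1 higher (median -0.16), or 36 lower without DAPT replicate 2. Of 38 proteasome genes 30 were lower and 1 higher (median -0.18), and of 29 chaperonin and heat shock genes 19 were lower and 2 higher (median -0.31). Hspd1, the mitochondrial chaperonin HSP60, had 15588 and 15500 with DAPT and 25542 and 26551 with DMSO.

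**Figure D4:**
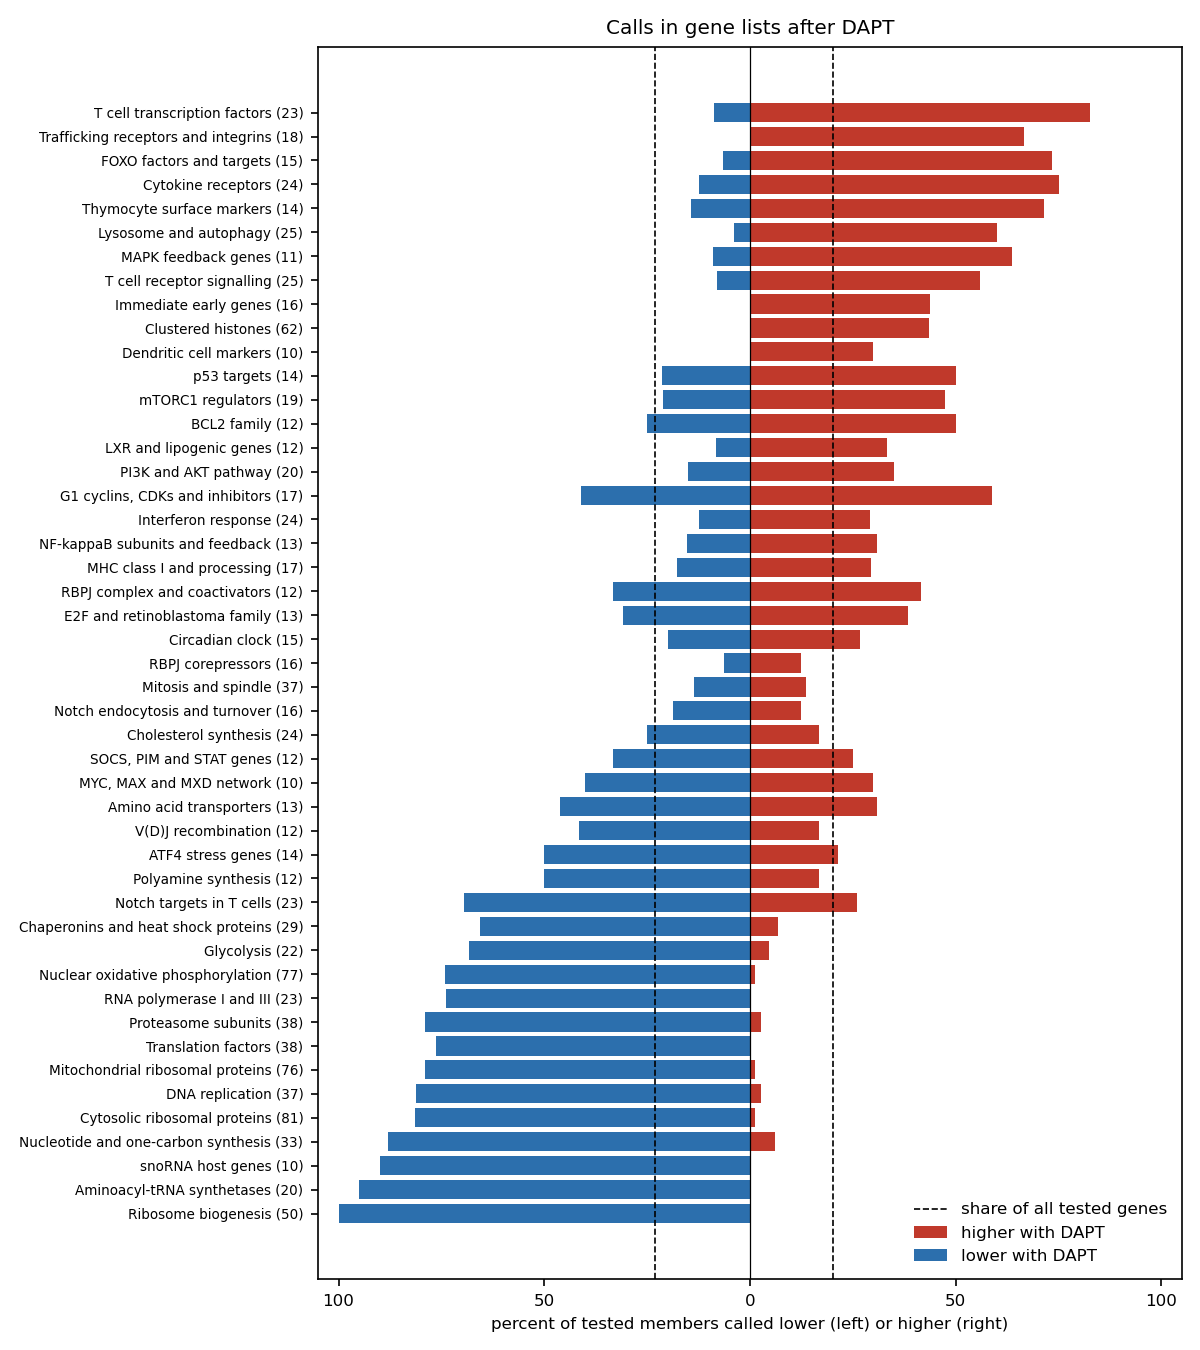
For gene lists with 10 or more tested members (number in brackets), the bars give the percent called lower with DAPT (blue, leftward) and higher (red, rightward). The Polycomb and histone deacetylase lists are not shown. Dashed lines give the shares of all tested genes, 23.1% lower and 20.1% higher. Ribosome biogenesis stands at 100% lower, and T cell transcription factors and cytokine receptors stand at the higher end; members were chosen with earlier results known, so bars are descriptions.

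Regulators of growth signalling went both ways. In the PI3K and AKT pathway, 7 genes were higher (35%) and 3 lower (15%) of 20 (median 0.07), beside 20.1% and 23.1% of all tested genes. Pik3r3, a regulatory subunit of PI3K, had 3338 and 3288 with DAPT and 1358 and 1374 with DMSO. The phosphatase gene Inpp5d (SHIP1) was higher, at 2087 and 2156 with DAPT and 1384 and 1318 with DMSO, and the phosphatase gene Phlpp1 was lower (-0.48 ± 0.05). Deptor, an inhibitor bound to mTOR, had 32.1 and 39.8 with DAPT and 112 and 116 with DMSO.

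Of 15 FOXO factors and targets, 11 were higher and 1 lower (median 0.33). Txnip, an inhibitor of glucose uptake, had 26773 and 27239 with DAPT and 18012 and 18324 with DMSO. Klf2, a regulator of T cell exit, was higher at few reads, with 38.5 and 43.5 with DAPT and 20.5 and 8.81 with DMSO. Pik3ip1, a PI3K inhibitor (0.52 ± 0.05), Cdkn1b, the inhibitor p27 (0.34), and Sesn3, a sestrin (0.40 ± 0.05), were higher, and Trib2 was the lower one. Foxo1 itself was at 0.02 with no call. Of 25 lysosome and autophagy genes, 15 were higher and 1 lower (median 0.22), with the protease gene Ctsd at 11227 and 11217 with DAPT and 7350 and 7031 with DMSO, where 31.5% of exonic bases are shared with another gene on the same strand.

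Cell cycle genes are given by phase. All 17 tested G1 genes were called, 10 higher and 7 lower. The D-type cyclin gene Ccnd1 had 7643 and 7691 with DAPT and 5214 and 5222 with DMSO, and the CDK inhibitor gene Cdkn2d had 3930 and 3840 with DAPT and 2991 and 2968 with DMSO. Cyclins and their inhibitors were thus both among the higher genes. Cdk6 was lower, at 1292 and 1271 with DAPT and 1600 and 1762 with DMSO, and so was the ligase component Skp2 (-0.33 ± 0.05). The lower count was 4 without DAPT replicate 1 and 4 without DAPT replicate 2.

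Of 37 DNA replication genes, 30 were lower and 1 higher (median -0.19). All 6 genes of the MCM2 to MCM7 helicase were lower, between -0.26 and -0.16. The origin recognition gene Orc2 had 2529 and 2518 with DAPT and 3233 and 3307 with DMSO, and the polymerase delta gene Pold1 had 7405 and 7201 with DAPT and 9524 and 9011 with DMSO. The higher one, Rpa3 (0.15 ± 0.05), lost its call without DAPT replicate 1 (adjusted p = 0.066), DAPT replicate 2 (0.13) or DMSO replicate 1 (0.11).

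Mitosis genes, by contrast, had 5 higher and 5 lower of 37 with a median of -0.01, shares under those of all tested genes in both directions. Aurkb, the kinase of the chromosomal passenger complex, was at 5130 and 5091 with DAPT and 5788 and 5868 with DMSO. Mki67, the proliferation marker, was at 36899 and 37301 with DAPT and 31887 and 33932 with DMSO (0.17 ± 0.04). When each library was left out in turn, the mitosis counts ran between 2 and 11 higher and between 2 and 8 lower, with 11 higher without DMSO replicate 2 and 8 lower without DMSO replicate 1. Clustered histone genes were higher in 27 of 62 and lower in 0 (median 0.10), but this count was 3 without DAPT replicate 1, 8 without DAPT replicate 2, 42 without DMSO replicate 1 and 9 without DMSO replicate 2. These genes too are near-identical copies.

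Survival genes of the BCL2 family were 6 higher (50%) and 3 lower (25%) of 12, beside 20.1% and 23.1% of all tested genes. The protective gene Bcl2l1 (BCL-XL) had 1178 and 1174 with DAPT and 809 and 839 with DMSO, and Bcl2 had 454 and 435 with DAPT and 343 and 329 with DMSO. Bbc3, the killer PUMA, was higher too, at 401 and 399 with DAPT and 324 and 287 with DMSO. Of the other death-promoting genes, Bid had 1461 and 1516 with DAPT and 2462 and 2340 with DMSO, and Bax had 1027 and 992 with DAPT and 1321 and 1344 with DMSO.

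The response to DAPT was then set beside those of the other experiments, each against its own controls, in a fit over all 12 libraries. That fit tested 13042 genes. The DAPT change differed from the apicidin change in 4541 genes (34.8%), more positive in 2088 (16%) and more negative in 2453 (18.8%). It differed from the shHdac3 change in 5714 (43.8%), more positive in 2613 (20%) and more negative in 3101 (23.8%). The treatments differ in agent, and the hairpin also in time, 96 h against 24 h, so time and agent cannot be told apart there.

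Notch outputs fell further with DAPT. For Dtx1 the log2 fold changes were -3.06 with DAPT, -0.65 with apicidin and -0.55 with shHdac3, and the DAPT change differed from that with apicidin by -2.41 ± 0.07 and from that with shHdac3 by -2.51 ± 0.07. For Hes1 they were -1.74 with DAPT, -0.23 with apicidin and -0.78 with shHdac3. Ptcra fell in all 3, at -2.33 with DAPT, -1.67 with apicidin and -1.23 with shHdac3, and further with DAPT than in either (adjusted p = 5.6e-09 against apicidin and 4.1e-13 against shHdac3).

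Some members did not show a difference. Notch3 was at -0.90 with DAPT, -0.79 with apicidin and -0.81 with shHdac3, with differences of -0.11 ± 0.06 (adjusted p = 0.14) and -0.09 ± 0.06 (adjusted p = 0.23). Fjx1 was at -0.76, -0.92 and -0.66 in the same order, with adjusted p of 0.17 and 0.38. Il2ra and Lef1 fell with DAPT, at -1.78 and -1.0, and stood at 0.05 and 0.03 with shHdac3. Lef1 was also at -0.01 with apicidin, and both of its differences passed (adjusted p = 2.1e-11 against apicidin and 3.9e-12 against shHdac3).

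Over the 23 tested Notch targets, the DAPT change was more negative in 14 and more positive in 5 against apicidin, and in 12 and 7 against shHdac3. Over all genes it was more negative in 18.8% and more positive in 16% against apicidin, and in 23.8% and 20% against shHdac3. Of the 123 genes in this fit that DAPT lowered 2-fold or more, 75 were lower and 2 higher with apicidin, and 57 lower and 11 higher with shHdac3. Of all genes, 20.2% were lower with apicidin and 19.2% with shHdac3. Of 173 genes that DAPT raised 2-fold or more, 51 were higher and 15 lower with apicidin, where 18.7% of all genes were higher. With shHdac3, 38 of the 173 were higher and 39 lower, and 22% of all genes were higher there, so the higher count was at the share of all genes.

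Growth lists differed between the experiments gene by gene. For the 50 ribosome biogenesis genes the medians were -0.56 with DAPT, -0.08 with apicidin and 0.29 with shHdac3. The DAPT change was more negative in 46 of the 50 against apicidin and in 48 against shHdac3. Over all genes it was more negative in 18.8% against apicidin and in 23.8% against shHdac3. Mybbp1a was at -0.79 with DAPT, -0.09 with apicidin and 0.46 with shHdac3. For the 20 aminoacyl-tRNA synthetases the DAPT change was more negative in 19 against apicidin and in 18 against shHdac3. DNA replication genes had medians of -0.19 with DAPT, -0.07 with apicidin and 0.29 with shHdac3, and the DAPT change was more negative in 18 and 36 of 37. Cytosolic ribosomal protein genes did not separate in this way, with medians of -0.14, -0.21 and -0.19.

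Some T cell genes had opposite signs between experiments. Il7r was at 0.35 with DAPT, -0.88 with apicidin and 0.55 with shHdac3, where the difference from apicidin passed (1.23 ± 0.11) and that from shHdac3 did not (adjusted p = 0.15). Trib2 was at -0.31 with DAPT, 0.52 with apicidin and -0.27 with shHdac3, again apart from apicidin (-0.83 ± 0.06) and not called against shHdac3 (adjusted p = 0.61). The rises of Ccr9 and Lztfl1 were shared in direction. Ccr9 was at 3.13 with DAPT, 1.21 with apicidin and 1.23 with shHdac3, and Lztfl1 at 2.41, 1.55 and 0.79, with larger rises under DAPT in each test.

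**Figure D5:**
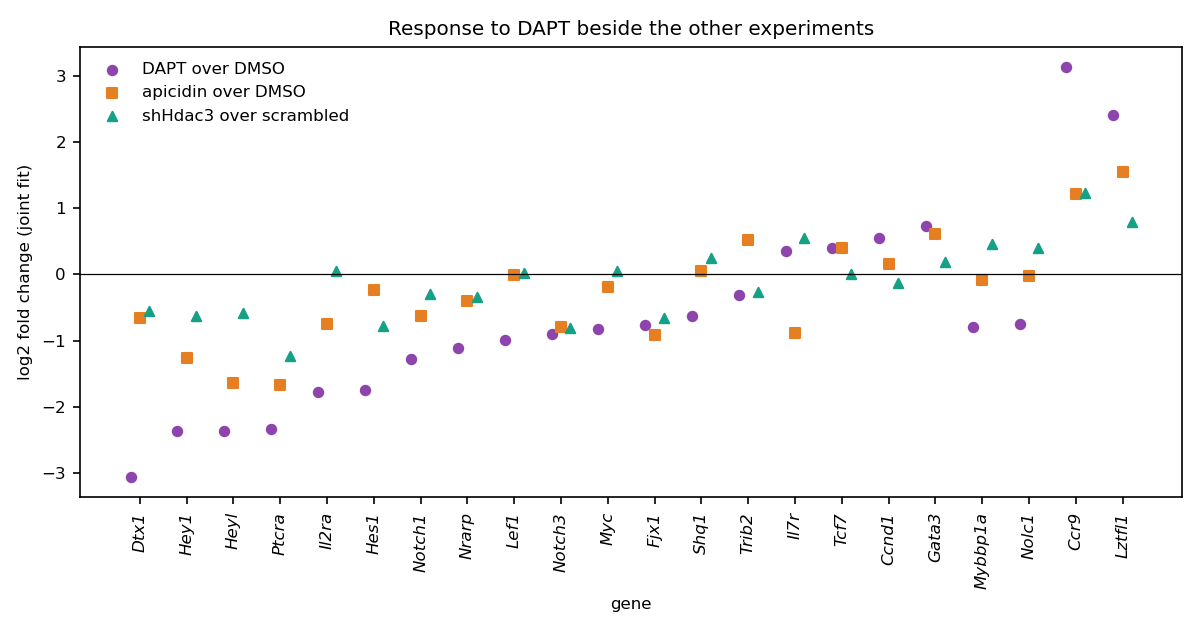
Log2 fold change from the fit over 12 libraries (vertical axis) for 22 genes (horizontal axis), with DAPT over DMSO as circles, apicidin over DMSO as squares and shHdac3 over scrambled as triangles. Within a gene, the circle lies lowest of the 3 symbols for Dtx1, Hey1, Heyl and Mybbp1a, among others. It lies highest for Ccr9 and Lztfl1, among others, while the 3 symbols for Notch3 lie close together.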

How the data were processed

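RNA from Beko cells was made into ribosomal RNA-depleted, stranded total RNA libraries, per the labels' protocols. The authors deposited a table in which each library has a normalized signal per gene. These are whole reads over a library's size factor, since 100% of values were whole multiples of 1 read within a relative 1e-06. The same deposited table has log2 fold changes, p-values and adjusted p-values, of which the adjusted p was used as an alternative only, and a score column with the test statistic, which was not used. The submitters' processing notes name mm9, FastQC, Bowtie2, TopHat and DESeq2. The read counter, the gene models and whether counting used strand remain unstated.

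Groups were taken from the sample titles. Log2(value + 1) was tested with limma 3.58.1 (R 4.3.3, trended prior variance), two-sided, without covariates, with Benjamini-Hochberg adjustment over the 12840 genes. The pseudocount of 1 understates changes of low genes. Fold changes are given ± SE. Differences between experiments used limma on 12 libraries in 6 groups after recomputing size factors. There are 68 hand-made gene lists, described by counts and medians. Genes named are the Notch lists, the 15 largest rises and 15 largest falls with a mean of 50 or more, up to 5 members per other list and those against its majority, and markers. Others named were chosen after their values were seen. Members and lists were chosen with earlier results of these data known. Alternatives included edgeR 4.0.16 and DESeq2 1.42.0 on recovered reads. The scripts were tested on simulated data. Promoters are RefSeq's (GRCm38.p6), and overlaps are from GENCODE vM21, another build than the authors'. Results for some genes are not reported here.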

Additional observations from a re-analysis of the deposited data

How the results depend on the processing

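With DESeq2 1645 genes were higher, and by the authors' deposited adjusted p, an alternative chosen after seeing the data, 1646 were, each beside 2168 lower; the cause was not tested. DESeq2 shared 3796 of the 5546 calls, all in the same direction. Leaving out 1 library gave 1945 to 2559 genes higher and 2329 to 3019 lower, and 3663 to 4020 and 4903 to 5254 genes differing from apicidin and shHdac3. With upper-quartile factors, which moved the median of all genes by 0.04, the counts were 3153 and 2430, or more higher than lower calls. Same-numbered libraries did not deviate together (correlation 0.02), so the numbers were not used as pairs, and a fit with the replicate number as a block gave 2826 higher and 3152 lower. Other pseudocounts, filters, TMM factors, edgeR and the fit without structural RNA and histone genes kept each total within 1.5 times. Of 352 named genes called, 290 kept call and direction under each of the 15 alternatives in which they were tested, and 0 reversed. Genes that an alternative dropped were not tested there. With DESeq2 47 lost the call, by the authors' deposited adjusted p 47 did, and some did when a library was left out. With 2 libraries a group, changes of low genes such as Notch4 are beyond this depth to settle.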

Other observations

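Some feedback and immune genes that belong to none of the groups above also changed. Of 11 tested MAPK feedback genes, 7 were higher and 1 lower. Dusp6, the phosphatase of ERK, had 1087 and 1102 normalized reads with DAPT and 536 and 555 with DMSO. Among NF-κB genes the precursor subunit and the feedback inhibitors went opposite ways: Nfkb2 had 693 and 695 with DAPT and 2008 and 2000 with DMSO, while Nfkbia had 3083 and 3268 with DAPT and 2148 and 2150 with DMSO, and Tnfaip3 (A20) had 1846 and 1914 with DAPT and 1177 and 1238 with DMSO. Nfkb2 differed from its change with apicidin (-0.13) by -1.40 ± 0.08, and from that with shHdac3 (-1.04) by -0.49 ± 0.08. Of 24 interferon response genes, 7 were higher (29.2%) and 3 lower (12.5%), beside 20.1% and 23.1% of all tested genes. Usp18 had 623 and 610 with DAPT and 307 and 292 with DMSO, whereas Oas2 had 2.14 and 4.63 with DAPT and 29.8 and 27.4 with DMSO. Oas2, with few reads, passed the filter only through its DMSO libraries, so it could enter only by being lower with DAPT.

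Receptors and carriers of other pathways moved too. Nr3c1, the glucocorticoid receptor, had 18770 and 18556 with DAPT and 11546 and 12255 with DMSO, and of its targets Tsc22d3 (GILZ) was higher (0.58 ± 0.05) and Fkbp5 lower, at 16939 and 16982 with DAPT and 21671 and 22402 with DMSO. Tfrc, the transferrin receptor, had 21241 and 21137 with DAPT and 12816 and 13954 with DMSO. The death receptor gene Fas had 593 and 604 with DAPT and 292 and 328 with DMSO. Trp53inp1, a p53-inducible gene, had 16230 and 16025 with DAPT and 9025 and 9791 with DMSO. In none of the 5 genes given here by library did the groups overlap. Both DAPT libraries lay above both DMSO libraries in 34.5% of all tested genes and below them in 35.5%.

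Other lists are given by their counts. Over all tested genes the shares were 20.1% higher and 23.1% lower. Clock genes, at 26.7% and 20%, lay near these. Of 19 mTORC1 regulators 9 were higher and 4 lower, of 13 E2F and retinoblastoma genes 5 and 4, of 14 p53 targets 7 and 3, and of 12 SOCS, PIM and STAT genes 3 and 4. Among them E2f4, a repressive E2F, had 2659 and 2581 with DAPT and 3622 and 3577 with DMSO, and Rbl2, the pocket protein p130, had 2640 and 2562 with DAPT and 1898 and 1956 with DMSO. Of 14 ATF4 stress genes 3 were higher and 7 lower, with Asns, asparagine synthetase, at -0.88 ± 0.11. Of 16 immediate early genes 7 were higher and 0 lower, of 15 clock genes 4 and 3, and of 17 MHC class I genes 5 and 3, where Tap2 (0.43 ± 0.04) rose and B2m (-0.38 ± 0.04) fell. Of 8 glucocorticoid receptor genes 5 were higher and 1 lower, and of 13 NF-κB genes 4 and 2.

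Of 25 Polycomb genes 6 were higher and 5 lower, of 8 DNA methylation genes 2 and 1, and of 11 histone deacetylase genes 4 and 1, with 1 higher by DESeq2. Of all tested genes, 20.1% were higher and 23.1% lower. Of 24 cholesterol synthesis genes 4 were higher and 6 lower, but 7 and 3 with upper-quartile factors. In that list 3 were lower without DAPT replicate 1 or without DAPT replicate 2, and 2 were higher with DESeq2. Insig1 was at 0.43 ± 0.04. Of 12 LXR and lipogenic genes 4 were higher (2 without DAPT replicate 1, 1 with DESeq2) and 1 lower. Of 9 iron genes 3 were higher and 4 lower (0 lower without DAPT replicate 1 or with DESeq2, 2 without DMSO replicate 1). Of 8 GIMAP GTPase genes, which are close copies, 4 were higher (2 without DAPT replicate 1 or with DESeq2) and 0 lower. In wider marker lists, 3 of 8 NK and cytotoxic genes were higher and 1 lower (Cd160), and of 5 fibroblast and stromal genes 3 were higher (Col1a2, Vim and Thy1) and 1 lower (Pdgfrb, a call lost without DAPT replicate 2, adjusted p = 0.25, and with DESeq2, 0.157). Higher calls, with 0 lower, were 3 of 10 in dendritic cell genes, 2 of 2 in mast cell genes (Kit and Cpa3), 1 of 4 in myeloid genes (Itgam), 1 of 6 in erythroid and megakaryocyte genes (Gata1, a call lost without DMSO replicate 2, adjusted p = 0.067), 1 of 5 in progenitor transcription factor genes (Gata1 again) and 0 of 3 in B cell genes. The part of other cells in these values was not tested.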
